A study of Homo sapiens with 2 samples.

Results

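The genes described here are 42 genes that act in G2, in mitotic entry, at the kinetochore, on the spindle and in cytokinesis. They were taken by gene symbol from a list whose rule uses no measured value, though the list was drawn up with earlier results of these data known, and all 42 were found, each with 1 probe set, among 17687 named genes on the array. The samples were cultures of SW48 cells, a human line established from a colorectal cancer, given a small interfering RNA (siRNA) against the zinc finger transcription factor YY1 (siYY1) or a negative control siRNA (siControl). Both siRNAs were used at 5 nmol/L, and RNA was taken after 3 days of culture. There was 1 array for siYY1 and 1 for siControl, and 1 siRNA sequence stood for the knockdown. The comparison asks which genes are expressed differently when YY1 is depleted. With no replicate array there is no error on any value, no test was possible, and each difference describes these arrays only. The level of YY1 was not analysed here, so the depth of the knockdown is not known.

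Cells that enter mitosis switch on cyclin B with its kinase CDK1, build a bipolar spindle, attach each chromosome to it through the kinetochore, and hold anaphase back until the spindle assembly checkpoint is satisfied. The genes for this machinery are transcribed together late in the cell cycle. The MuvB core complex binds the cell cycle genes homology region (CHR) of their promoters. With p107 or p130 (encoded by RBL1 and RBL2) and E2F4 it forms the repressive DREAM complex, and with B-MYB and FOXM1 it activates them. NF-Y, which binds CCAAT boxes, adds to their activity. Because the transcripts follow the share of cells in G2 and mitosis, they are widely read as a proliferation signature. In a bulk sample, fewer cells in these phases and less RNA per cell cannot be told apart.

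Values are the deposited log2 values, and a difference is siYY1 minus siControl. Genes were kept for counts when their mean over both arrays reached 7.54, the median of named genes. All 42 genes reached this value on each array taken singly as well, and 0 of them exceeded 16, the log2 ceiling of a 16-bit scanner. Deposited values reached 17.97 in siYY1, above that ceiling, so staying under 16 does not show that a gene was unsaturated. Over the 8844 genes kept, Pearson's r between the arrays was 0.987, a description only, since probes share the arrays and are not replicates. Of 11 epithelial markers measured, 8 were kept, among them EPCAM (16.24 in siYY1 and 16.04 in siControl) and CDX2 (12.06 in siYY1 and 11.91 in siControl), whereas CDX1, VIL1 and LGALS4 were under 7.54 on both arrays. Of the 8 epithelial markers kept, 4 had a difference above 0 (50%, against 50.4% of genes kept) and 4 below. Their differences ran from -0.34 (KRT19) to 0.19 (EPCAM), with a median of -0.0045. None of 8 leukocyte or 6 endothelial markers was kept, and of 7 fibroblast markers only COL1A2 was (9.05 in siYY1 and 8.60 in siControl).

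The mitotic genes had no common direction in siYY1. Of the 42, 22 were above 0 (52.4%, against 50.4% of all genes kept), and the median difference was 0.020, against 0.0028 over all genes kept. At a threshold of 1.5-fold, 0 were higher and 0 were lower. The background shares were 3.04% of genes kept at least 1.5-fold higher in siYY1 and 3.78% at least 1.5-fold lower. The most extreme differences were those of PLK4, the kinase that starts centriole duplication, at -0.55, and of CCNA2, the S and G2 cyclin A, at 0.31.

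At the smaller threshold of 1.2-fold, 3 genes were higher, namely CCNA2, TOP2A and BIRC5 (7.14%, against 16.9% of genes kept). On the lower side were 8 genes (19.0%, against 17.9% of genes kept), namely PLK4, CDC25C, UBE2C, INCENP, CENPE, CDC25B, CDCA8 and KIF2C. The share on the lower side was thus near that of genes at large, and the share on the higher side was below it, with no test of either. The upper end was short, since the highest member reached only 0.31.

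**Figure D1:**
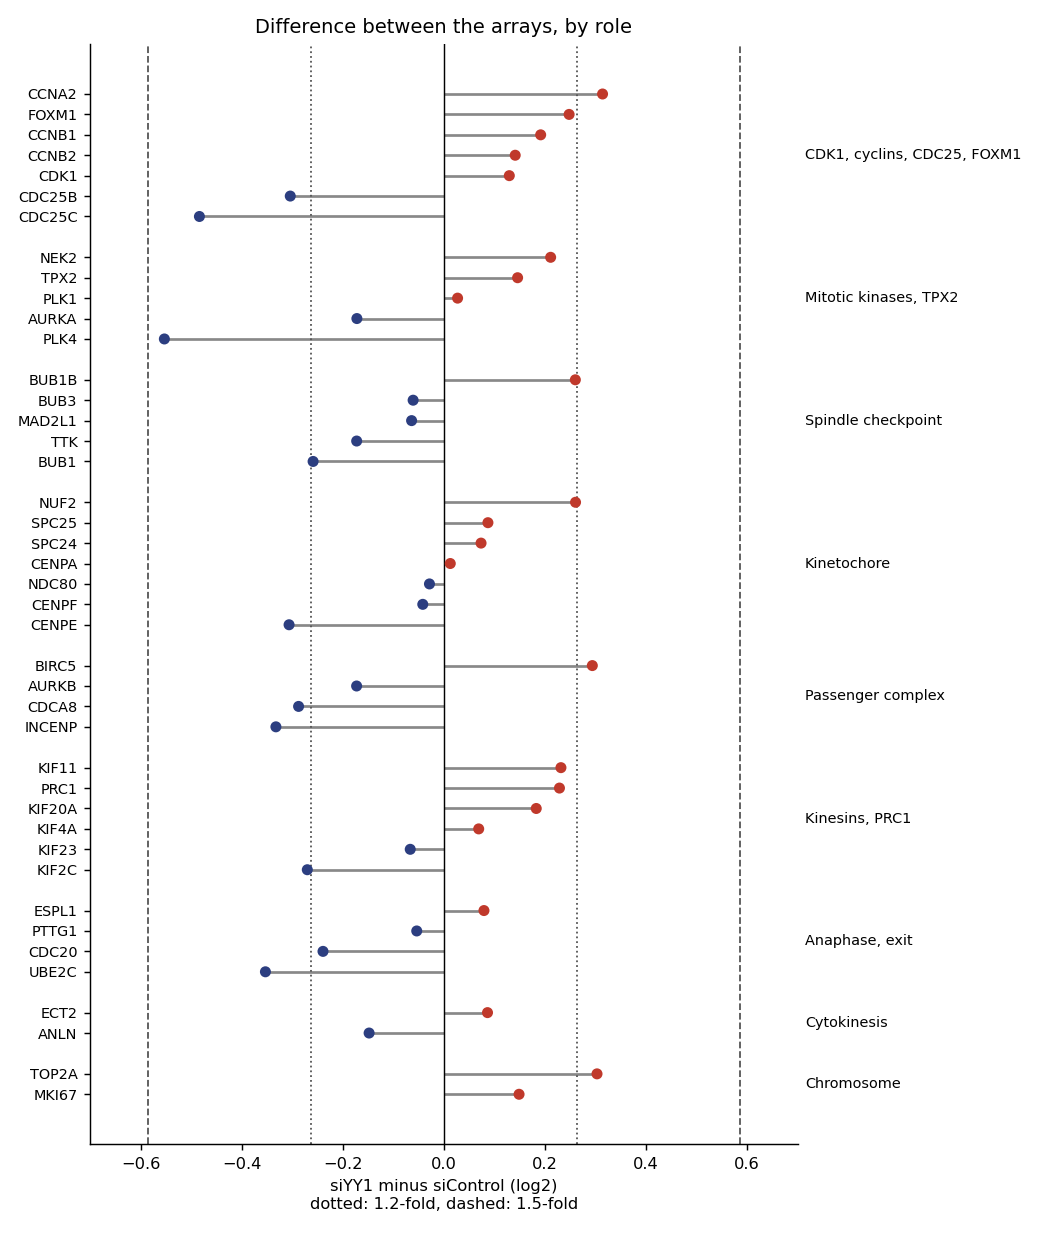
Difference of each gene between the arrays (horizontal axis, siYY1 minus siControl, log2), grouped by role, with dotted lines at 1.2-fold and dashed lines at 1.5-fold. No gene reaches a dashed line, 3 lie past the dotted line on the higher side and 8 on the lower side, and PLK4 at -0.55 is the most extreme.

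The extremes of the group were modest, while its middle spread about as far as that of genes at large. The SD of the 42 differences was 0.23, against 0.32 over all genes kept, and the quartiles were -0.17 and 0.17, against -0.19 and 0.18. The genes described are bright, and bright genes scatter less between these arrays. Among the 4422 genes in the upper quartile of level the SD was 0.28, and for the 33 of the 42 genes in that range it was 0.21. The interquartile range went the other way, at 0.36 for these 33 genes against 0.32 for all 4422. Their median absolute difference was also larger, at 0.18 against 0.16. The smaller SD thus came with shorter tails, not with a narrower middle. Within 0.1 of 0 lay 13 of the 42 genes (31.0%), against 28.5% of genes kept.

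The levels also had much the same distribution on both arrays. Their median was 11.91 in siYY1 and 12.01 in siControl. Their quartiles were 11.08 and 13.29 in siYY1, and 11.21 and 13.33 in siControl. The SD of the levels was 1.52 in siYY1 and 1.46 in siControl. Each probe set has its own brightness, so this spread holds probe effects and does not order the genes by expression. The lowest value belonged on both arrays to CDC25C (8.31 in siYY1 and 8.79 in siControl), and the highest to PLK1 (15.13 in siYY1 and 15.10 in siControl).

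**Figure D2:**
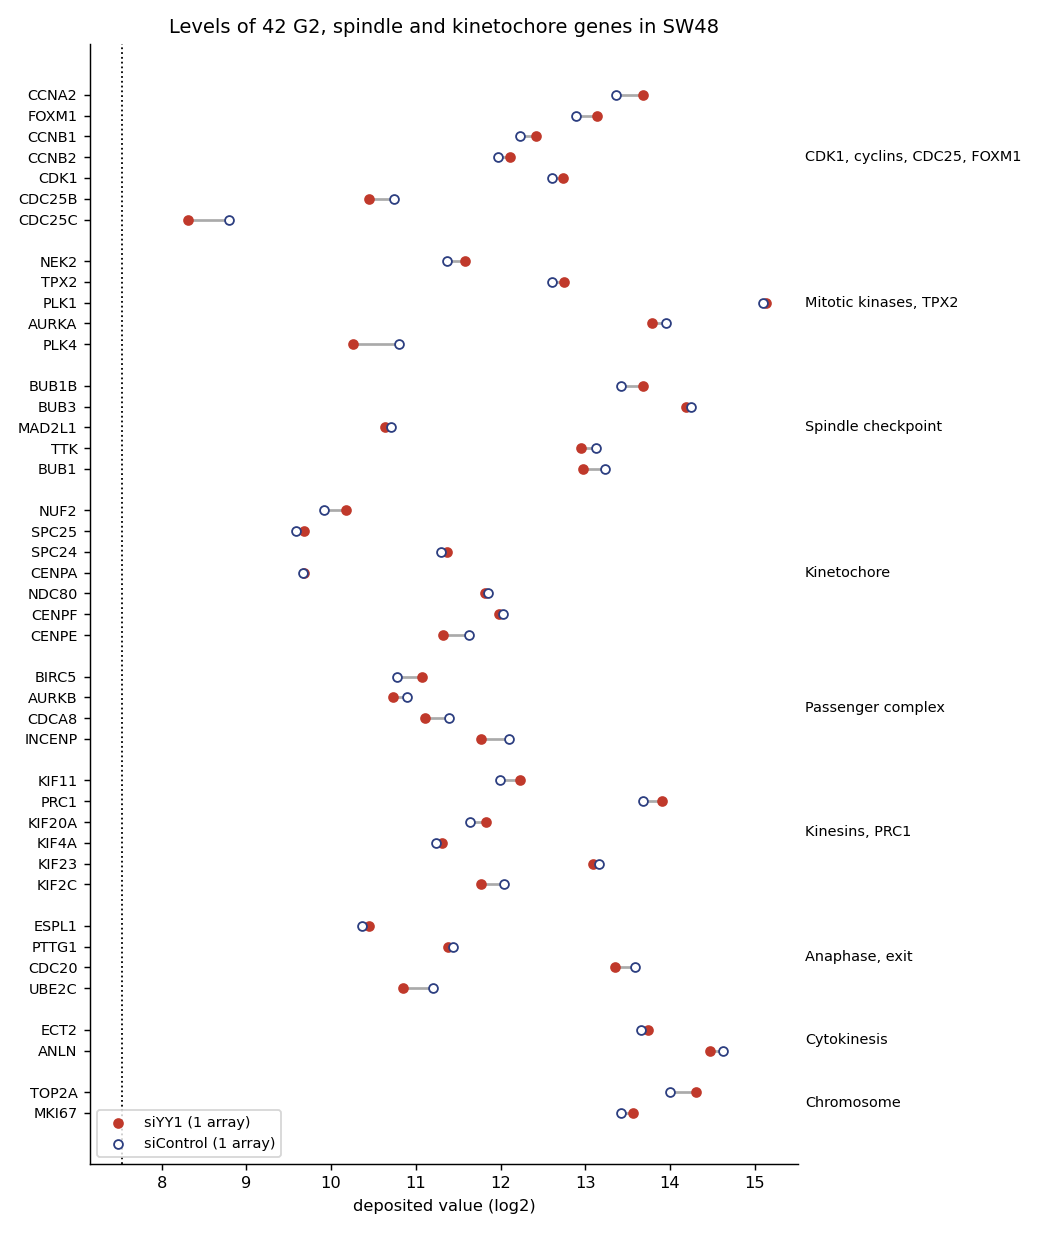
Deposited log2 value of each gene (horizontal axis) in siYY1 (filled circles, 1 array) and in siControl (open circles, 1 array), grouped by role, with a dotted line at the expression filter of 7.54. The circles of a gene lie close together in comparison with the range of the group, and all lie to the right of the filter.

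What many of these genes share is visible in their promoters. The RefSeq promoter table of build GRCh38.p14, which gives 250 bases before to 50 after each transcription start, held 35 of the 42 genes, and 14250 named genes of the array in all. The letters TTTGAA, the canonical CHR, were searched on both strands and were found in 24 of 35 genes (68.6%), against 15.9% of array genes. In the window from 100 before to 50 after the start they were found in 23 of 35 (65.7%), against 7.01%. The letters CCAAT were found in 29 of 35 genes (82.9%), against 42.3% of array genes. Both together were found in 20 of 35 (57.1%), against 8.22%. A gene with several listed starts counts as holding a motif when any of its windows does, and a match describes letters, not a bound site. Only these exact letters were searched, so a gene without a match may hold a variant of them.

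To show TTTGAA in place, 1 gene of each role is printed, chosen because its match lies nearest the start within that role. The positions printed are therefore the closest ones, and a printed match need not be the CHR of its gene. Each is given with 9 bases on each side, read 5′ to 3′ on the strand of the match and with TTTGAA in capitals.
ESPL1: ccgcggataTTTGAAaggagggtc
PLK1: agcgccgcgTTTGAAttcggggag
MKI67: tcgttttcgTTTGAAttgggcggg
BUB1B: accgttaaaTTTGAAacttggcgg
PRC1: gtggcgcggTTTGAAattttgcgg
ANLN: aaattcaaaTTTGAAcggctgcag
INCENP: gccttcagtTTTGAAaatcatagt
SPC25: tgcactaggTTTGAAatcggaaag
CDK1: agagccagcTTTGAAgccaagtgc
On GRCh38.p14 these stretches are chr12:53268259-53268282 on the plus strand (ESPL1, separase), chr16:23678851-23678874 on the plus strand (PLK1) and chr10:128126438-128126461 on the minus strand (MKI67). BUB1B is at chr15:40161037-40161060 on the plus strand, PRC1 at chr15:90994541-90994564 on the minus strand and ANLN at chr7:36389833-36389856 on the plus strand. INCENP is at chr11:62123992-62124015 on the plus strand, SPC25 at chr2:168890419-168890442 on the minus strand and CDK1 at chr10:60778478-60778501 on the minus strand. Counted from the start as +1, with the base before it as -1, the first base of the match lay at -31 in ESPL1, -29 in PLK1 and MKI67, -23 in BUB1B, -20 in PRC1 and ANLN, -10 in INCENP, -3 in SPC25 and 10 in CDK1. In CDK1 the match is on the strand opposite to the gene. Over the 22 genes whose nearest match has 9 bases on each side inside the window, the position ran from -151 to 35 with a median of -23, and 19 matches began within 50 bases of the start.

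The differences in siYY1 were then set beside these letters, with no test of any gap. The 24 genes with TTTGAA in the full window had a median difference of 0.048, and the 11 without had -0.054. Over the 7462 genes kept that are in the promoter table the medians were 0.029 with TTTGAA and -0.0037 without. The gap among the genes described depended on the window. From 100 before to 50 after the start, the median was 0.027 for the 23 genes with TTTGAA and 0.0097 for the 12 without. The 29 genes with CCAAT in the full window had a median difference of 0.069, and the 6 without had -0.088. Over the same 7462 genes the medians were 0.011 with CCAAT and -0.0045 without. The core letters of the YY1 site, AANATGG on either strand, were found in 5 of the 35 genes (14.3%), against 18.6% of array genes. Those 5 genes were CENPE (-0.31), KIF2C (-0.27), PLK4 (-0.55), PTTG1 (-0.054) and SPC25 (0.087), with a median of -0.27, against 0.071 for the 30 without. Over the 7462 genes the medians were 0.0086 with AANATGG and 0.00073 without, so over these genes the median with the letters was no lower than without. The E2F core letters GCGGGAA were found in 4 of 35 genes (11.4%), against 10.8% of array genes. Those 4 genes had a median difference of -0.15, and the 31 without had 0.069. Over the 7462 genes the medians were -0.0076 with GCGGGAA and 0.0045 without.

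**Figure D3:**
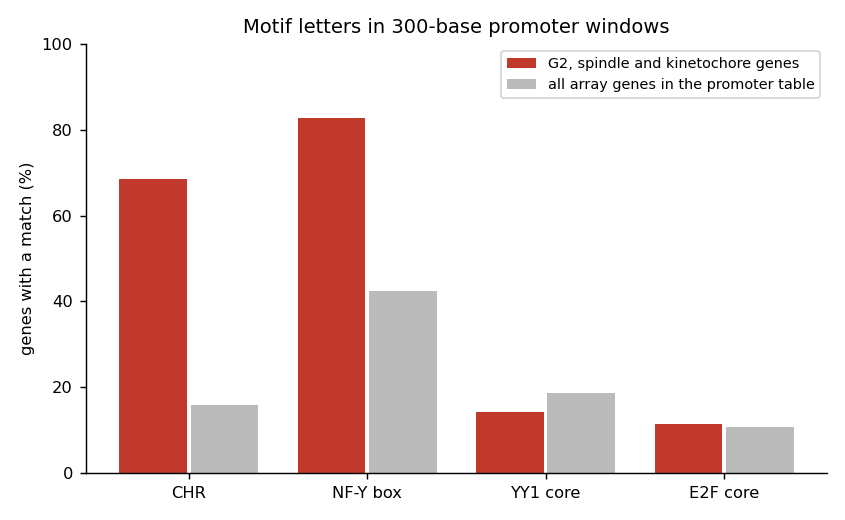
Percentage of genes whose promoter window of 300 bases holds each motif on either strand, for the 35 G2, spindle and kinetochore genes in the promoter table (left bars) and for all 14250 array genes in it (right bars). The CHR (68.6% against 15.9%) and the NF-Y box (82.9% against 42.3%) are more frequent in the genes described, and the YY1 core is at 14.3% against 18.6%.

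Full windows are printed for both ends of the list, the 2 genes with the highest difference (CCNA2, TOP2A) and the 2 with the lowest (PLK4, CDC25C), with each match of the motifs named above in capitals and the start listed first in the table used where there are several.
CCNA2: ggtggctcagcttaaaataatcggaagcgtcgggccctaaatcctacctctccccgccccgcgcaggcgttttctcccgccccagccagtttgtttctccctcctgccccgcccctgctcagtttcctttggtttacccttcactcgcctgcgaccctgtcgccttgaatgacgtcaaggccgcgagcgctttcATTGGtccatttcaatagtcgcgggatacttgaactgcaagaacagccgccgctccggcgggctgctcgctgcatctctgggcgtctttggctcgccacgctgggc
TOP2A: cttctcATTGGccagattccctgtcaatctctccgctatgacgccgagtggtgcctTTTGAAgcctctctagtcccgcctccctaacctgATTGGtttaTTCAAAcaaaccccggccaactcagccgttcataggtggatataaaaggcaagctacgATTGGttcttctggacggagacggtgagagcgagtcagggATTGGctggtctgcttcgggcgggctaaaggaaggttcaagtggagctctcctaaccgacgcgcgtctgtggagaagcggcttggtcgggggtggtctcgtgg
PLK4: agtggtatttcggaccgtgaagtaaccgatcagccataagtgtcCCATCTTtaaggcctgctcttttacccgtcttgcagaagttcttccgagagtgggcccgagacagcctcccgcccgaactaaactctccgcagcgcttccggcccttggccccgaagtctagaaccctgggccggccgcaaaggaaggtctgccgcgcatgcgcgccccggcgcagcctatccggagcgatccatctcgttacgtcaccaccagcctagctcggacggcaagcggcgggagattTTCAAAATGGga
CDC25C: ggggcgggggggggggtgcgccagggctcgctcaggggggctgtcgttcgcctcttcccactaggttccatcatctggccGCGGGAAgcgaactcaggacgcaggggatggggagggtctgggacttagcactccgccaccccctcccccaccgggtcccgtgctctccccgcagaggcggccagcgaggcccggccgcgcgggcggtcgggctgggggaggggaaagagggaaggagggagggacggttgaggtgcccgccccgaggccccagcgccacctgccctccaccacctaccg
The windows are chr4:121823834-121824133 on the minus strand (CCNA2), chr17:40417847-40418146 on the minus strand (TOP2A), chr4:127880643-127880942 on the plus strand (PLK4, 3 starts listed) and chr5:138338306-138338605 on the minus strand (CDC25C, 4 starts listed), all of GRCh38.p14. The TOP2A window holds 6 matches, 4 of CCAAT and 2 of TTTGAA. The CCNA2 window holds 1 match, of CCAAT on the opposite strand. The PLK4 window holds TTTGAA on the opposite strand at 39 and AANATGG at 42 and, on the opposite strand, at -206, and the matches at 39 and 42 overlap. The CDC25C window shown holds 1 match, of GCGGGAA. At other listed starts, not printed here, CDC25C has TTTGAA (at -30) and CCAAT, and PLK4 has CCAAT.

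Among the genes of mitotic entry, CDK1 and its 3 cyclins were each slightly higher in siYY1. The phosphatase genes CDC25B and CDC25C, whose products remove the inhibitory phosphates from CDK1, were lower, and their paralog CDC25A, named after its value was seen, was not. CCNA2 was 13.68 in siYY1 and 13.37 in siControl, a difference of 0.31 (1.24-fold). CCNB1, the main mitotic cyclin, was 12.42 in siYY1 and 12.23 in siControl (0.19). CCNB2, its Golgi-associated paralog, was 12.11 in siYY1 and 11.97 in siControl (0.14). Their kinase had the smallest difference of these 4 genes, CDK1 being 12.74 in siYY1 and 12.61 in siControl (0.13). FOXM1, the forkhead factor that activates G2 genes, was 13.13 in siYY1 and 12.89 in siControl (0.25). CDC25C, the phosphatase active at mitotic entry, was 8.31 in siYY1 and 8.79 in siControl, a difference of -0.48 (1.40-fold lower). CDC25B, which starts CDK1 activation at the centrosome, was 10.44 in siYY1 and 10.75 in siControl (-0.30, 1.23-fold lower). CDC25A, which also acts at the start of S phase and belongs to the list of CDK1 regulators below, was 9.97 in siYY1 and 9.79 in siControl (0.18). Without CDC25A, the entry group had 5 of 7 genes above 0 (71.4%, against 50.4% of genes kept) and a median of 0.14.

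Among the mitotic kinases, the centriole kinase stood apart from the spindle kinases. PLK4 was 10.25 in siYY1 and 10.81 in siControl, which is 1.47-fold lower and the difference nearest to the 1.5-fold threshold. PLK1, the polo-like kinase of spindle and cytokinesis, was 15.13 in siYY1 and 15.10 in siControl (0.027). The differences of these paralogs were 0.58 apart. AURKA, the Aurora kinase of spindle poles, was 13.78 in siYY1 and 13.96 in siControl (-0.17). TPX2, the protein that activates it on microtubules, was 12.75 in siYY1 and 12.60 in siControl (0.15). NEK2, which releases the link between centrosomes, was 11.58 in siYY1 and 11.37 in siControl (0.21).

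Spindle assembly checkpoint genes had 1 of 5 above 0 (20%, against 50.4% of genes kept) and a median of -0.064. BUB1, the kinase that recruits shugoshin and other checkpoint proteins to kinetochores, was 12.97 in siYY1 and 13.23 in siControl (-0.26). Its paralog BUB1B, which encodes the inhibitor BUBR1, was 13.69 in siYY1 and 13.43 in siControl (0.26), so the paralogs had differences of nearly equal size and opposite sign. TTK, the MPS1 kinase at the head of the checkpoint, was 12.95 in siYY1 and 13.12 in siControl (-0.17). MAD2L1, which encodes the checkpoint effector MAD2, was 10.64 in siYY1 and 10.70 in siControl (-0.064). BUB3, the shared binding partner of BUB1 and BUBR1, was 14.19 in siYY1 and 14.25 in siControl (-0.061).

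Kinetochore genes centred on 0, with 4 of 7 above 0 (57.1%, against 50.4% of genes kept) and a median of 0.012. The Ndc80 complex couples kinetochores to microtubules, and its 4 subunits lay between -0.029 and 0.26. NUF2 was 10.18 in siYY1 and 9.92 in siControl (0.26). NDC80, its partner in the microtubule-binding part of the complex, was 11.82 in siYY1 and 11.85 in siControl (-0.029). SPC24 was 11.37 in siYY1 and 11.30 in siControl (0.073). SPC25, which pairs with SPC24 on the chromosome side, was 9.68 in siYY1 and 9.59 in siControl (0.087). CENPA, the histone H3 variant that marks centromeres, was 9.68 in siYY1 and 9.67 in siControl, and this difference of 0.012 was the single one of the 42 to take the other sign (-0.0023) when the differences were centred on the median of all genes. CENPF was 11.99 in siYY1 and 12.03 in siControl (-0.042). CENPE, the kinetochore kinesin that brings chromosomes to the spindle equator, was the lowest of the group at 11.32 in siYY1 and 11.63 in siControl (-0.31, 1.24-fold lower).

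The chromosomal passenger complex, which corrects faulty attachments and later guides cytokinesis, had differences of both signs. INCENP, the scaffold, was 11.77 in siYY1 and 12.10 in siControl (-0.33, 1.26-fold lower). CDCA8, which encodes borealin, was 11.11 in siYY1 and 11.40 in siControl (-0.29), and the kinase gene AURKB was 10.73 in siYY1 and 10.90 in siControl (-0.17). BIRC5, which encodes survivin, had the opposite sign at 11.07 in siYY1 and 10.78 in siControl (0.29, 1.23-fold). The gap between INCENP and BIRC5 was 0.63, the widest within any of the 9 complexes, kinase pairs and paralog pairs set side by side.

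Motor and midzone genes had 4 of 6 above 0 (66.7%, against 50.4% of genes kept) and a median of 0.13. KIF11, the Eg5 kinesin that pushes spindle poles apart, was 12.23 in siYY1 and 12.00 in siControl (0.23). PRC1, which bundles midzone microtubules, was 13.91 in siYY1 and 13.68 in siControl (0.23), and its partner kinesin KIF4A was 11.31 in siYY1 and 11.24 in siControl (0.069). KIF4A has a near-identical retrocopy, so its value may not be separate from that copy. KIF20A, a kinesin that carries the passenger complex to the midzone, was 11.83 in siYY1 and 11.64 in siControl (0.18). KIF23, the motor of centralspindlin, was 13.09 in siYY1 and 13.16 in siControl (-0.067). KIF2C, a kinesin that takes microtubules apart at centromeres, was 11.77 in siYY1 and 12.04 in siControl (-0.27).

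Genes of anaphase and mitotic exit had a median of -0.15, with 1 of 4 above 0 (25%, against 50.4% of genes kept). UBE2C, the ubiquitin-conjugating enzyme of the anaphase-promoting complex (APC/C), was 10.85 in siYY1 and 11.20 in siControl (-0.35, 1.28-fold lower). CDC20, the activator of the APC/C at the start of anaphase, was 13.35 in siYY1 and 13.58 in siControl (-0.24). Securin and the protease it inhibits differed little. PTTG1, which encodes securin and has near-identical retrocopies that its probes may also read, was 11.38 in siYY1 and 11.44 in siControl (-0.054). ESPL1, which encodes separase, was 10.45 in siYY1 and 10.37 in siControl (0.079).

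For cytokinesis, ANLN, the anillin scaffold of the contractile ring, was 14.48 in siYY1 and 14.62 in siControl (-0.15). ECT2, the exchange factor that activates RhoA at the equator, was 13.74 in siYY1 and 13.66 in siControl (0.086). Both genes of chromosome structure were higher. TOP2A, the topoisomerase that untangles sister chromatids, was 14.30 in siYY1 and 14.00 in siControl (0.30, 1.23-fold), and the proliferation marker MKI67 was 13.57 in siYY1 and 13.42 in siControl (0.15).

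**Figure D4:**
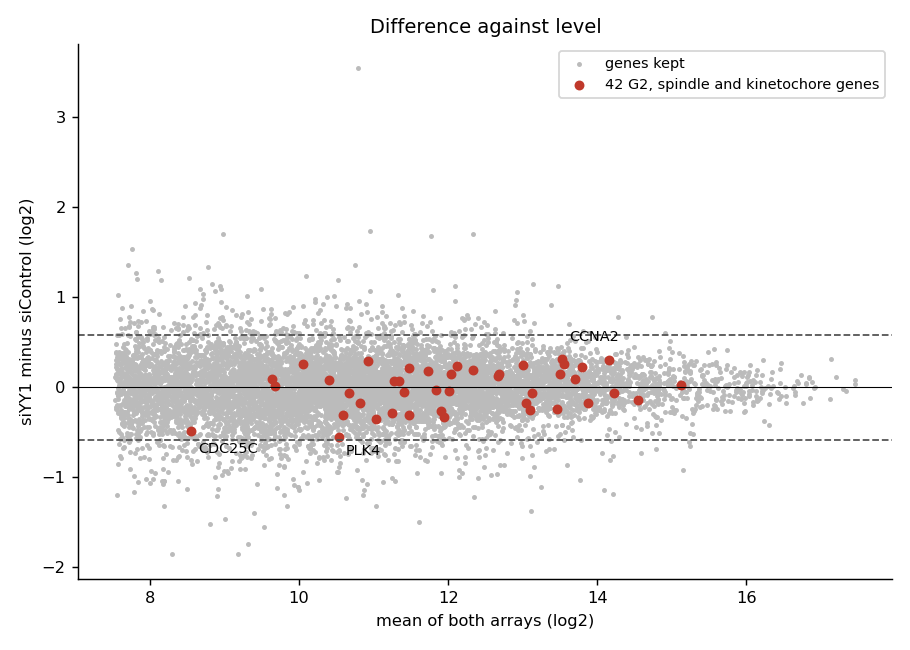
Difference (vertical axis, siYY1 minus siControl, log2) against the mean of both arrays (horizontal axis, log2) for the 8844 genes kept (grey) and the 42 G2, spindle and kinetochore genes (red), with dashed lines at 1.5-fold. The red points lie inside the grey cloud and between the dashed lines, with PLK4 (-0.55) and CDC25C (-0.48) lowest and CCNA2 (0.31) highest.

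Other genes of the same processes were taken from 9 further lists, 173 genes in all, of which 161 were measured and 154 kept. They had a median difference of 0.011, and 79 of 154 were above 0 (51.3%, against 50.4% of genes kept). At 1.5-fold, 3 were higher (1.95%, against 3.04% of genes kept) and 5 were lower (3.25%, against 3.78%), so the shares were no larger than those of genes at large. The 3 higher genes were NFYA, SMC2 and CENPO. The 5 lower genes were HAUS8, ANAPC11, CENPH, KNTC1 and KIF15.

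The inner kinetochore and centromere loading genes had 4 of 16 above 0 (25%, against 50.4% of genes kept) and a median of -0.092. CENPH was 9.61 in siYY1 and 10.28 in siControl (-0.67, 1.59-fold lower), and CENPK, a subunit of the same CENP-H/I/K/M group, was 9.28 in siYY1 and 9.83 in siControl (-0.55). On the other side CENPO was 10.98 in siYY1 and 10.37 in siControl (0.61, 1.53-fold), and MIS18A, which licenses CENP-A loading, had a difference of 0.22. Subunits of one assembly therefore lay at both ends. For the outer kinetochore and checkpoint list the median was -0.20, with 7 of 17 above 0 (41.2%, against 50.4% of genes kept). There KNTC1 was 9.79 in siYY1 and 10.45 in siControl (-0.66). ZW10 was 10.17 in siYY1 and 9.63 in siControl (0.54) and ZWILCH had a difference of 0.37, although these 3 genes encode the subunits of a single complex, RZZ. SGO2, a protector of centromeric cohesion, differed by -0.44.

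Spindle assembly genes had a median of -0.053 over 28 genes. HAUS8, a subunit of the augmin complex, was 7.14 in siYY1 and 7.99 in siControl (-0.85), and the siYY1 value lies under the filter of 7.54, so the size of this difference is uncertain. HAUS1, of the same complex, was 9.31 in siYY1 and 8.94 in siControl (0.37). The kinesin KIF15, which can stand in for KIF11, was 9.03 in siYY1 and 9.67 in siControl (-0.64, 1.56-fold lower), and the microtubule plus-end gene CLASP1 differed by 0.32. The APC/C list had a median of -0.023 over 17 genes. Its catalytic RING subunit ANAPC11 was 9.88 in siYY1 and 10.66 in siControl (-0.78, 1.72-fold lower), ANAPC13 differed by -0.56, and the tetratricopeptide subunits CDC27 and CDC16 differed by 0.23 and 0.22.

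Condensin and cohesin genes had 12 of 19 above 0 (63.2%, against 50.4% of genes kept) and a median of 0.12. SMC2, the core ATPase of condensin, was 9.27 in siYY1 and 8.60 in siControl (0.66, 1.58-fold), and SMC1A of cohesin was 12.62 in siYY1 and 12.05 in siControl (0.57). STAG2 (-0.21) and the loader NIPBL (-0.19) were at the low end. Regulators of CDK1 had a median of 0.023 over 17 genes, from MNAT1 (-0.38) and CCNH (-0.22), both of the CDK-activating kinase, to PPP2R1A (0.38) and ENSA (0.39), both of the phosphatase branch. For further cytokinesis genes the median was 0.19 over 10 genes, with KIF20B (-0.40) and the stress-responsive polo-like kinase gene PLK2 (-0.32) at one end and SEPTIN7 (0.36) and RHOA (0.42) at the other.

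The regulators of the programme itself, MuvB, DREAM and NF-Y subunits, had 9 of 14 above 0 (64.3%, against 50.4% of genes kept) and a median of 0.11. NFYA, the sequence-specific subunit of NF-Y, was 11.56 in siYY1 and 10.77 in siControl, a difference of 0.79 (1.73-fold). Its partner subunits, named after their values were seen, differed far less, NFYB by -0.077 and NFYC by 0.037. LIN37, a MuvB subunit needed for repression, was 8.87 in siYY1 and 8.35 in siControl (0.52). E2F4 and RBL1, which encodes p107, differed by -0.11 and -0.16. The remaining list of G2 and mitosis genes had a median of 0.21 over 17 genes, from the nuclear import gene KPNA2 (-0.39) and TROAP (-0.15) to the nuclear lamina gene TMPO (0.33) and the endosomal kinesin gene KIF13A (0.34).

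Set beside them, 46 DNA replication genes had 14 above 0 (30.4%, against 50.4% of genes kept) and a median of -0.14. At 1.2-fold, 0 of these were higher (against 16.9% of genes kept) and 13 were lower (28.3%, against 17.9%). At 1.5-fold, 0 were higher (against 3.04% of genes kept) and 3 were lower (6.52%, against 3.78%). The primase genes PRIM2 (-0.75) and PRIM1 (-0.63) were lowest, and the ribonucleotide reductase gene RRM2 and the licensing inhibitor gene GMNN were highest (0.21 each). The difference between the replication and the mitotic lists was not tested, since there is 1 array per group.

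**Figure D5:**
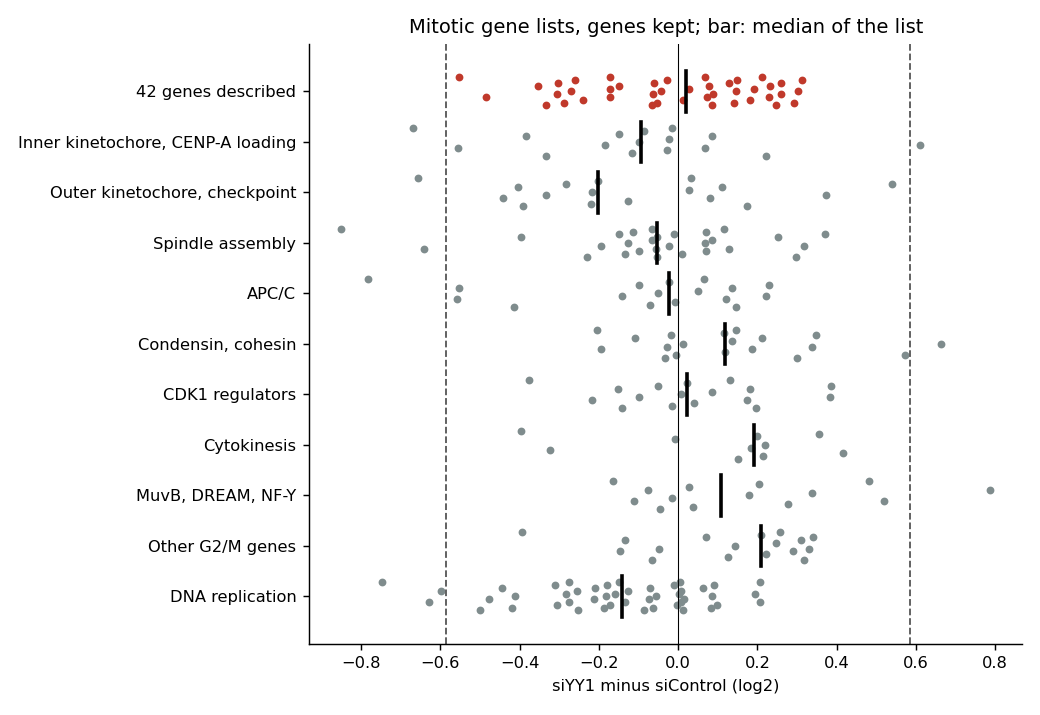
Differences (horizontal axis, siYY1 minus siControl, log2) of the genes kept in each list (points, spread vertically for legibility), with the median of each list as a black bar and dashed lines at 1.5-fold. The 42 genes described (red) centre on 0.020 and stay between the dashed lines, other mitotic lists centre between -0.20 and 0.21, and DNA replication centres on -0.14.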

How the data were processed

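Total RNA of SW48 cells was labelled with biotin for whole-transcript GeneChips, per the labels' protocols, and groups come from the sample titles. The authors deposited 1 summarised log2 value per probe set, where log2 was read from the values (2.32 to 17.97 in siYY1 and 2.46 to 17.90 in siControl). Not given in the sources used here were the software, background correction, normalization, log base and array build. When the values of each array were sorted, the largest gap between them was 0.153.

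Of 21448 probe sets, 17709 had a symbol in GEO's platform annotation, 3739 are unnamed here, and 0 symbols changed through RefSeq identifiers of GRCh38.p14. Probe sets of the same gene were averaged (20 genes). Differences were described by size and by counts past 1.5-fold and 1.2-fold. The steps were tested on simulated data. The genes and lists were chosen with earlier results of these data known. Every one of the 42 genes is named, and of each further list up to 2 genes kept at either end. Beyond these, a few cell type markers are named, and NFYB, NFYC and CDC25A carry the remark that their values had been seen. Promoters came from RefSeq. Alternatives changed the threshold, the filter, the scaling (quantile normalization, median centring, lowess with a fraction of 0.3), the probe rule and the promoter window. The number of arrays limits the precision. Python 3.11.15, numpy 2.4.6, pandas 2.3.3, statsmodels 0.14.6 and matplotlib 3.10.9 were used.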

Additional observations from a re-analysis of the deposited data

How the results depend on the processing

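With thresholds of 1.2-fold, 1.3-fold and 2-fold in place of 1.5-fold, 3, 0 and 0 of the 42 genes were higher in siYY1 and 8, 2 and 0 were lower. The scalings tried left the count past 1.5-fold at 0 on both sides. The probe rule could not change this count, since each of the 42 genes has 1 probe set. Nor could the filters raise it, since all 42 genes were already kept. The median difference of the 42 genes ranged from 0.0049 (median centring) to 0.069 (filter at the upper quartile, 33 genes). The genes above 0 numbered 22, or 21 with median centring, and 18 of 33 with the filter at the upper quartile. The median of the other mitotic genes changed sign only with median centring (-0.0038). No single-gene difference named moved by more than 0.184, the median absolute difference of genes kept, under the scalings or the probe rule. No paired analysis was possible because each group has 1 array. Scatter between repeat arrays is unknown, so differences of the size reported cannot be told apart from it.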
